A study of Mus musculus with 28 samples.

Results

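The cytochrome P450 family was followed across the tissues of a mouse model of spontaneous mammary carcinoma metastasis. Members were taken by name: gene symbols made of Cyp, a number, letters and a number in the annotation of the array platform. Each gene was read from 1 probe set, that of highest mean on the 26 tissue arrays among those that listed a single symbol. This gave 70 of the 18193 genes on the arrays, 18 of them with several probe sets. Cyp51, Ptgis and Tbxas1 are P450 enzymes whose symbols fall outside the rule, and they were kept as a separate list.

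Whole-tissue RNA was measured on 28 Affymetrix arrays of probe sets, short oligonucleotides that each report on a transcript, and the deposited log2 signals after RMA (robust multi-array average) were used. Lung metastases (LungMets, n = 9) and primary tumors (PT, n = 11) came from female Balb/c nude mice of 8 weeks, injected at the fourth mammary gland with 50000 JygMC(A) cells. This mammary carcinoma line is of mouse origin and carried a GFP and luciferase reporter. Primary tumors were taken 30 days and lung nodules 50 days after injection. Normal lung parenchyma (NL, n = 3) and normal mammary gland (NMG, n = 3) came from healthy Balb/c nude mice of 6 to 8 weeks, and JygMC(A) cells grown as spheres or as a monolayer gave 1 array each. All tumors derive from 1 cell line, and nude mice lack a functional thymus. For the frozen blocks of the study, the methods describe fragments of tumor and metastasis from fewer mice than there are PT or LungMets arrays, some mice giving more than 1 fragment, and the sources used here do not tie mice to arrays. Arrays of a group may therefore share a mouse, n counts arrays, and the p-values, which cover the spread between arrays, would then be too small.

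P450 enzymes are heme proteins that insert an oxygen atom into their substrate, with electrons passed to them by partner proteins in the endoplasmic reticulum or the mitochondria. Enzymes of the Cyp1 to Cyp4 families mostly oxidize foreign compounds, fatty acids and eicosanoids, whereas other families make or break down steroid hormones, bile acids, vitamin D and retinoic acid. The liver is the main site of the foreign-compound enzymes, but the mouse lung has a strong set of its own in the club cells of its airways, and fat and mammary tissue hold others.

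Promoter sequences of 4 members around which the results turn are shown because they form contrasting pairs. Cyp1a1 and Cyp1b1 are both known targets of the aryl hydrocarbon receptor and had opposite patterns between NL and NMG, and Cyp2f2 and Cyp2b10 lie in the same gene cluster of chromosome 7 and were both at their highest in NL. The sequences are those of RefSeq (GRCm38.p6), from 250 bases before to 50 bases after the gene start, 5′ to 3′ on the strand of the gene. Capitals mark GCGTG, the core of the dioxin response element, or its complement CACGC, and TATAAA or its complement TTTATA. The windows are chr9:57697363-57697662 (plus strand) for Cyp1a1, chr17:79715012-79715311 (minus strand) for Cyp1b1, chr7:27119705-27120004 (plus strand) for Cyp2f2 and chr7:25897408-25897707 (plus strand) for Cyp2b10.
Cyp1a1: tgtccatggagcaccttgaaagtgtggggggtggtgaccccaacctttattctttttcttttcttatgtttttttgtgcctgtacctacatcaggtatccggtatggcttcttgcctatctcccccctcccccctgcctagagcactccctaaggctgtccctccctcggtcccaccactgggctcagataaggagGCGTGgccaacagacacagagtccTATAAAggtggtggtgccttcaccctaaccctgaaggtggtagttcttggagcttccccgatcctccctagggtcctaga
Cyp1b1: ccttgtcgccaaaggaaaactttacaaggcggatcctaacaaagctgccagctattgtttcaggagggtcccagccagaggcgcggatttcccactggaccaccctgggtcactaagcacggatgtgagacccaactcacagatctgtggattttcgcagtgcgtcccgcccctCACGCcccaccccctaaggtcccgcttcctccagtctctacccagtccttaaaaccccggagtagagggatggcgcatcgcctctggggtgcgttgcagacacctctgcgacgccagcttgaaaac
Cyp2f2: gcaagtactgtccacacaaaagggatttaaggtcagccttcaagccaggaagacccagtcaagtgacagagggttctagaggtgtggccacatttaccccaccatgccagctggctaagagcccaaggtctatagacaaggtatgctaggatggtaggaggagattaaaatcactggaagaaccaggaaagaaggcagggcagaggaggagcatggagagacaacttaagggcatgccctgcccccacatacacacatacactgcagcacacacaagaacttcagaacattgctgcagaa
Cyp2b10: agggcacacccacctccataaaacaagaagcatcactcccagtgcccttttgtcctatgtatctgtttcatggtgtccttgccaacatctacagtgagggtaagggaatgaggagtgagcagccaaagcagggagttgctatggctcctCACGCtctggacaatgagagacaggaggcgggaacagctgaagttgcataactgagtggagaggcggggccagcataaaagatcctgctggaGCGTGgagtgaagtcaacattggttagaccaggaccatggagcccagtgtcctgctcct
Cyp1a1 held GCGTG starting 54 bases before the start and TATAAA 30 bases before it. Cyp1b1 held CACGC 76 bases before the start, Cyp2b10 held CACGC 101 bases and GCGTG 9 bases before it, and none of these letters occurred in the window of Cyp2f2. GCGTG on either strand was found in 32.4% of all 32851 promoters of the same length and in 14 of 58 promoters (24.1%) of the 51 members that had one, and TATAAA on either strand in 13.6% of all promoters and 21 of the 58 (36.2%). A match is a description of the window only.

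Before any comparison, PT 5 and LungMets 9 stood apart from their groups. Over all genes PT 5 correlated at r = 0.9682 with the mean of the other PT arrays and at 0.9891 with the LungMets mean, and its closest array was LungMets 5 (r = 0.9955). LungMets 9 correlated at 0.9634 with the other LungMets arrays and at 0.9834 with the PT mean, and its closest array was PT 2 (r = 0.9886). Lung marker genes moved with this: Scgb1a1, the secreted protein of club cells, read 9.19 on LungMets 9 against 13.20 to 14.36 on the other LungMets arrays, and 13.33 on PT 5 against 3.05 to 10.76 on the other PT arrays. Both arrays were kept under their labels, and differences of several P450 genes in which they were the edge arrays are given with and without them. The 2 arrays were picked from these same values for their likeness to the other group. Leaving them out therefore narrows the spread within groups in such genes, and p-values without them are not independent support. Array medians lay between 5.00 and 5.18, and arrays of NL and of NMG each came from a date batch of their own, so that date batch and tissue cannot be told apart for them.

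Most P450 genes were at a low signal in every tissue. Only 21 of the 70 members had a group mean above the lowest array median (5.00) in at least 1 tissue group, against 71.3% of all genes, and 49 stayed below it in all 4 groups. The count above was 16 in LungMets, 13 in PT, 20 in NL and 18 in NMG. Of the 21, the highest group mean was in NL for 13, in PT for 4, in LungMets for 2 and in NMG for 2. As a scale for low signal, the Y-linked genes, absent from female tissue, averaged 2.86 to 3.23.

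**Figure D1:**
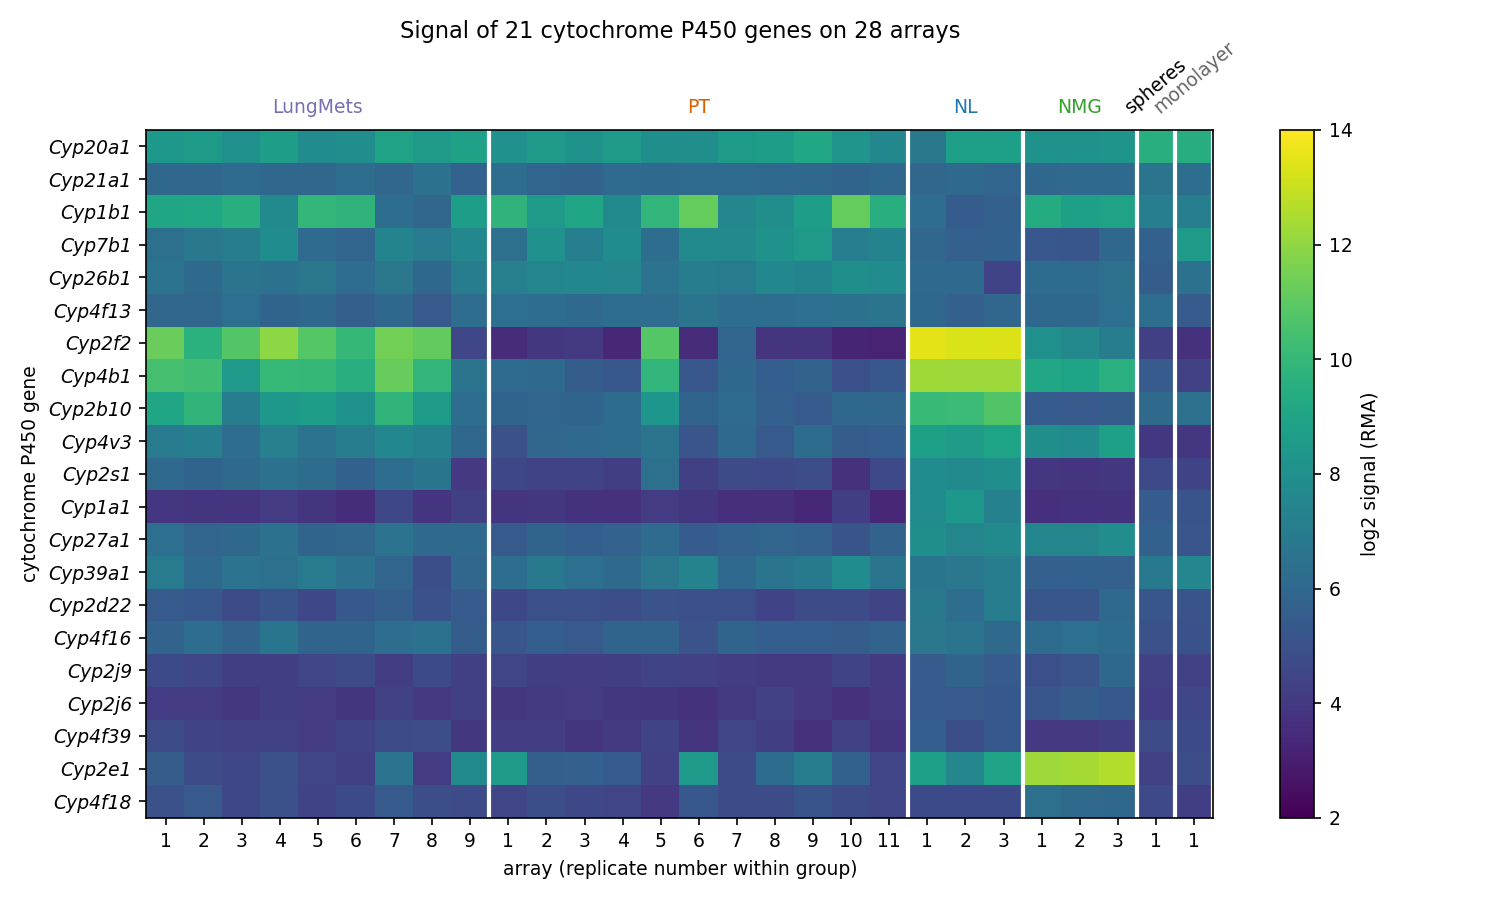
Log2 signal (RMA, colour) of the 21 cytochrome P450 genes above the lowest array median in at least 1 tissue group, in rows ordered by the tissue of highest mean, on 28 arrays in columns by group and replicate number. Cyp2f2, Cyp4b1, Cyp2b10 and Cyp2s1 are higher in NL, in LungMets other than LungMets 9 and on PT 5 than on the other PT arrays. Cyp4b1 (8.94 to 9.60) and Cyp2f2 (7.07 to 8.03) are above those PT arrays in NMG too, and Cyp2e1 is brightest in NMG.

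The low members included whole families that are known from liver. All 10 Cyp2c genes of the cluster on chromosome 19 and all 4 Cyp3a genes of the cluster on chromosome 5 were below 5.00 in each tissue group. So were 6 of 7 Cyp2d genes counted in the cluster on chromosome 15, and Cyp2d13 of the same chromosome, which that count leaves out (4.22 to 4.77). In the chromosome 7 cluster, 3 of 8 members exceeded it (Cyp2s1, Cyp2b10 and Cyp2f2), while Cyp2b13, Cyp2b9, Cyp2b19, Cyp2g1 and Cyp2a12 in between did not. Hepatocyte markers averaged 3.94 to 4.95 on all arrays. The group means of no low member spanned more than 1.14 log2 units.

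The largest P450 differences between metastases and primary tumors were in Cyp2f2, Cyp4b1, Cyp2b10 and Cyp2s1, all higher in LungMets. In LungMets against PT, 11 of 70 members passed the test (adjusted p under 0.05), 8 higher and 3 lower, where 15.2% of all genes passed, 9.03% higher and 6.13% lower. The median difference of the 70 was 0.03 and that of all genes −0.02. With each array centred on its median 14 members passed, 7 higher and 7 lower, and the share of all genes under that centring is not given here. With a fold over 2 as a further condition, 5 were higher and 0 lower, where 2.8% of all genes were higher and 0.297% lower. Whole tissue was measured, so fewer cells of a type and less RNA per cell cannot be told apart here or in the comparisons that follow. LungMets and PT arrays also serve in the other comparisons, which are therefore not independent of this one.

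Cyp2f2, which activates naphthalene and is a marker of club cells in mice, differed most. Its signal on LungMets arrays was 4.54 at the lowest, 10.83 at the median and 11.96 at the highest, against 3.17, 3.84 and 10.82 on PT arrays. The low value was LungMets 9 and the high one PT 5; the other 8 LungMets arrays lay at 9.69 or above and the other 10 PT arrays at 5.90 or below. The difference was 5.70 ± 0.86 (SE; adjusted p = 0.00012), and 7.04 without both arrays.

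Cyp4b1, an enzyme that oxidizes fatty acids and activates lung toxins such as ipomeanol, showed the same arrays at its edges. It read 6.60, 9.99 and 11.21 (lowest, median, highest) in LungMets and 4.91, 5.58 and 9.92 in PT. LungMets 9 was the lowest and PT 5 the highest, and without them the groups did not overlap (8.48 or above in LungMets, 6.21 or below in PT). The difference was 3.62 ± 0.52 (adjusted p = 0.000119), and 4.39 without both arrays.

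Cyp2b10, a target of the constitutive androstane receptor that is also known from mouse lung, read 6.32, 8.54 and 9.87 in LungMets and 5.41, 5.92 and 8.31 in PT. Again LungMets 9 was the lowest LungMets array and PT 5 the highest PT array. The difference was 2.31 ± 0.37 (adjusted p = 0.000191), and 2.80 without both arrays. The other probe sets of this gene gave larger contrasts: group means of 8.23 and 7.84 in LungMets, against 3.97 and 3.68 in PT.

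Cyp2s1, a P450 of epithelia outside the liver, read 4.00, 6.15 and 6.65 in LungMets and 3.73, 4.60 and 6.42 in PT. The LungMets arrays other than LungMets 9 lay at 5.71 or above, and the PT arrays other than PT 5 at 4.85 or below. The difference was 1.32 ± 0.28 (adjusted p = 0.00214), and 1.75 without both arrays. Cyp4v3, the mouse counterpart of a human fatty acid hydroxylase, was higher by 1.08 ± 0.21 (adjusted p = 0.00117, and by 1.27 without both arrays), with 6.01, 7.03 and 7.61 in LungMets and 4.99, 5.95 and 6.64 in PT, ranges that overlapped.

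The remaining changes were under 2-fold. Cyp4f16 was 0.50 ± 0.14 higher (adjusted p = 0.0133; 5.56, 5.87 and 6.65 in LungMets, 5.06, 5.60 and 5.88 in PT), Cyp27a1 was 0.47 ± 0.12 higher and Cyp4f15 0.26 ± 0.08 higher. The call of Cyp4f15 was lost with each array centred on its median (0.15, adjusted p = 0.174), after a further quantile normalization (adjusted p = 0.0562) and without LungMets 1 (adjusted p = 0.0507). Cyp26b1, Cyp26a1 and Cyp4f13 were lower in LungMets, and Cyp26a1 and Cyp26b1 are described with the retinoic acid enzymes. Without PT 5 and LungMets 9, 15 members passed (10 higher, 5 lower).

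Lung cell markers rose with these genes. All 5 alveolar type 2 markers, 4 of 5 club cell, 4 of 5 alveolar type 1, 4 of 5 ciliated and 6 of 7 endothelial markers were higher in LungMets than in PT, where 9.03% of all genes were. The mean of the club cell list was 5.89 (LungMets 9), 9.75 (median) and 11.79 in LungMets, against 3.85, 4.58 and 9.79 (PT 5) in PT, 12.41 to 12.74 in NL and 4.44 to 7.10 in NMG. The part of normal lung in the P450 differences was not tested.

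**Figure D2:**
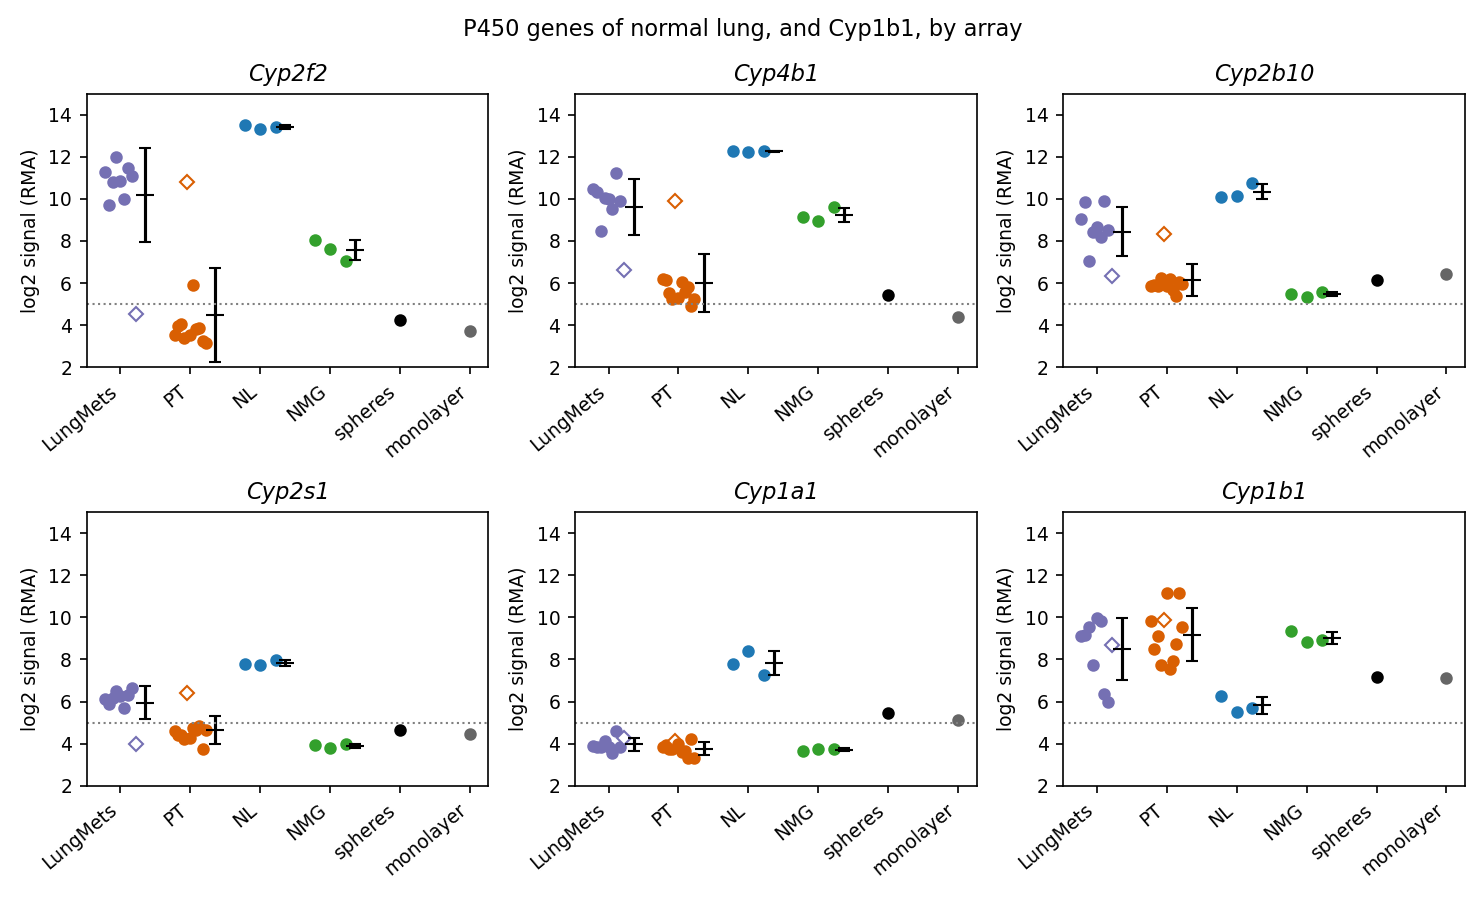
Log2 signal (RMA) of 6 P450 genes by group, 1 point per array, with mean and SD beside each group of several arrays; the open diamonds are PT 5 and LungMets 9, and the dotted line is the lowest array median. In Cyp2f2, Cyp4b1, Cyp2b10 and Cyp2s1 the diamonds lie toward the other group, Cyp1a1 is high in NL only among the tissues, and Cyp1b1 is low in NL.

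Within date batches fewer members passed. The share of all genes within a date batch is not given here. The counts within batches are therefore not read as results about the members. PT and LungMets were spread over 2 date batches. Within the first (4 LungMets, 4 PT) 6 members passed, and within the second (5 LungMets, 7 PT), which holds both PT 5 and LungMets 9, limma called 0 members, although 12 had an unadjusted p under 0.05. There Cyp2f2 differed by 4.68 and Cyp4b1 by 3.33. Without the 2 arrays, which were picked from these same values, 7 members passed within the second batch. The difference of Cyp2f2 was then 6.92 (adjusted p = 1.86e-05) and that of Cyp4b1 4.67. A fit of both batches at once, which shares the spread between them, called 2 members within the first and 4 within the second, Cyp2f2 (adjusted p = 0.0483), Cyp4b1 (0.0481), Cyp2b10 (0.0482) and Cyp4f13 (0.0481). The test of the difference between batches called 0 of 70 members and 0% of all genes, with 0 members at an unadjusted p under 0.05.

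Set against normal lung, metastases had lower signals of Cyp1a1, Cyp2f2, Cyp2e1, Cyp4b1, Cyp2b10 and Cyp2s1 and a higher signal of Cyp1b1. In LungMets against NL, 28 of 70 members passed, 14 higher and 14 lower, where 46.2% of all genes passed (23.8% higher, 22.4% lower). The median difference was 0.11, and 0.05 for all genes. After a further quantile normalization 20 members passed, 5 higher and 15 lower, and the share of all genes in that setting is not given here. With a fold over 2 as a further condition, 2 were higher and 11 lower, where 6.69% of all genes were higher and 9.58% lower. Of the 14 higher calls, 11 were in members below 5.00 in every tissue group, with differences of 0.41 or less. Without NL 3, 17 members passed, 3 higher and 14 lower.

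Cyp1a1, the classic target of the aryl hydrocarbon receptor that oxidizes polycyclic hydrocarbons, read 3.56, 3.86 and 4.60 (lowest, median, highest) in LungMets, against 7.78, 8.40 and 7.28 in NL. All LungMets arrays were below all NL arrays, and the PT arrays (3.32 to 4.22) and NMG arrays (3.63, 3.76 and 3.74) were as low. The difference was −3.84 ± 0.21 (14.3-fold lower; adjusted p = 1.27e-12). In LungMets against PT, where the other lung genes differed, Cyp1a1 did not pass (0.21, 95% interval −0.08 to 0.49).

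Cyp1b1, which hydroxylates estradiol and polycyclic hydrocarbons, ran the other way. It read 5.98, 9.10 and 9.96 in LungMets, against 6.28, 5.50 and 5.68 in NL. LungMets 8 (5.98) and LungMets 7 (6.34) were at or near the level of NL, and the other 7 LungMets arrays were at 7.73 or above. The difference was 2.66 ± 0.78 (adjusted p = 0.00695). PT arrays spanned 7.55 to 11.15 and NMG arrays read 9.36, 8.81 and 8.91. The probe set used averaged 9.18 in PT and 9.03 in NMG. The other probe sets of Cyp1b1 were higher in PT, at 6.81 and 4.46, against 5.28 and 3.78 in NMG.

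The 4 genes that differed most between LungMets and PT lay below NL in the metastases. Cyp2f2 read 13.51, 13.30 and 13.39 in NL, above every LungMets array, and its difference of −3.22 ± 1.27 passed at an adjusted p of 0.0405 (−2.51 without both arrays that stood apart, adjusted p = 7.32e-05). Leaving out any NL array took the call away (adjusted p = 0.0934 to 0.103), as did leaving out LungMets 2 or LungMets 6 (0.0537 and 0.0512). Cyp4b1 (12.28, 12.23 and 12.26 in NL) was lower by 2.64 ± 0.78, Cyp2b10 (10.11, 10.16 and 10.76 in NL) by 1.90 ± 0.55 and Cyp2s1 (7.80, 7.72 and 7.99 in NL) by 1.88 ± 0.42. Without PT 5 and LungMets 9 these differences were −2.27, −1.64 and −1.63. All LungMets arrays were below all NL arrays in these 4 genes.

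Further members were lower in LungMets than in NL. Cyp2e1, which oxidizes ethanol and small solvents, was lower by 3.18 ± 0.77 (4.15, 4.78 and 7.71 in LungMets, against 8.76, 7.57 and 8.92 in NL), and LungMets 9, the highest, overlapped with NL (−3.49 without both arrays that stood apart). Cyp4v3 was lower by 1.91 ± 0.32, with 8.83, 8.65 and 8.94 in NL above every LungMets array. Cyp2d22 averaged 5.17 ± 0.32 in LungMets and 6.75 ± 0.41 in NL (SD). Cyp2j6 and Cyp2j9 were lower by 1.26 ± 0.11 and by 1.12 ± 0.17, and in both genes all LungMets arrays lay below all NL arrays.

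Between the normal tissues, Cyp2f2, Cyp2b10, Cyp1a1, Cyp2s1 and Cyp4b1 were higher in the lung and Cyp2e1, Cyp1b1 and Cyp4f18 lower. In NL against NMG, 13 of 70 members passed, 10 higher and 3 lower, where 28.9% of all genes passed (14.3% higher, 14.5% lower), so that the share of higher members was that of all genes. The median difference was 0.09, and −0.0073 for all genes. Of the 13, 9 were higher and 3 lower by more than 2-fold, where 8.12% of all genes were higher and 6.93% lower. Cyp2f2 was 5.82 ± 1.56 higher, Cyp2b10 4.87 ± 0.68, Cyp1a1 4.11 ± 0.25 (17.2-fold; adjusted p = 9.13e-12), Cyp2s1 3.94 ± 0.51 and Cyp4b1 3.03 ± 0.95. Cyp2e1 was lower by 4.01 ± 0.94 and Cyp1b1 by 3.21 ± 0.95 (adjusted p = 0.0118). Leaving out NMG 2 took the call of Cyp4b1 away (2.88, adjusted p = 0.0575). With the probe set of Cyp1b1 of largest interquartile range the difference was −2.67 (adjusted p = 0.0733).

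Smaller differences completed the list of normal tissue. Cyp4f18, whose enzyme inactivates leukotrienes in mouse neutrophils, read 4.69, 4.71 and 4.70 in NL, against 6.45, 6.16 and 6.06 in NMG, and was lower by 1.52 ± 0.24. Cyp2d22 was higher by 1.23 ± 0.25 (6.86, 6.30 and 7.09 in NL, 5.23, 5.20 and 6.11 in NMG), Cyp4f39 by 1.19 ± 0.23, Cyp39a1 by 1.13 ± 0.40 and Cyp4f15 by 1.02 ± 0.14. The call of Cyp39a1 was lost when any NL or NMG array was left out. The clusters of neighbours were mixed, since Cyp4f39, Cyp4f16, Cyp4f15, Cyp4f14 and Cyp4f13 adjoin on chromosome 17 and only Cyp4f39 and Cyp4f15 were called here.

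Cyp2f2 stayed within a narrow range on the NMG arrays while the club cell gene did not. Cyp2f2 read 8.03, 7.64 and 7.07 in NMG 1, 2 and 3, while Scgb1a1 read 11.51, 7.15 and 3.29 there. NMG 3 thus had Cyp2f2 above all PT arrays but PT 5 with Scgb1a1 at the level of the lowest PT arrays. On PT 7 Scgb1a1 read 10.76 with Cyp2f2 at 5.90, and on LungMets 9 Scgb1a1 read 9.19 with Cyp2f2 at 4.54. Sftpc, the surfactant gene of alveolar type 2 cells, read 10.55, 5.93 and 4.98 in NMG, with NMG 1 the highest as in Scgb1a1, and the part of lung transcripts in the NMG values was not tested.

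**Figure D3:**
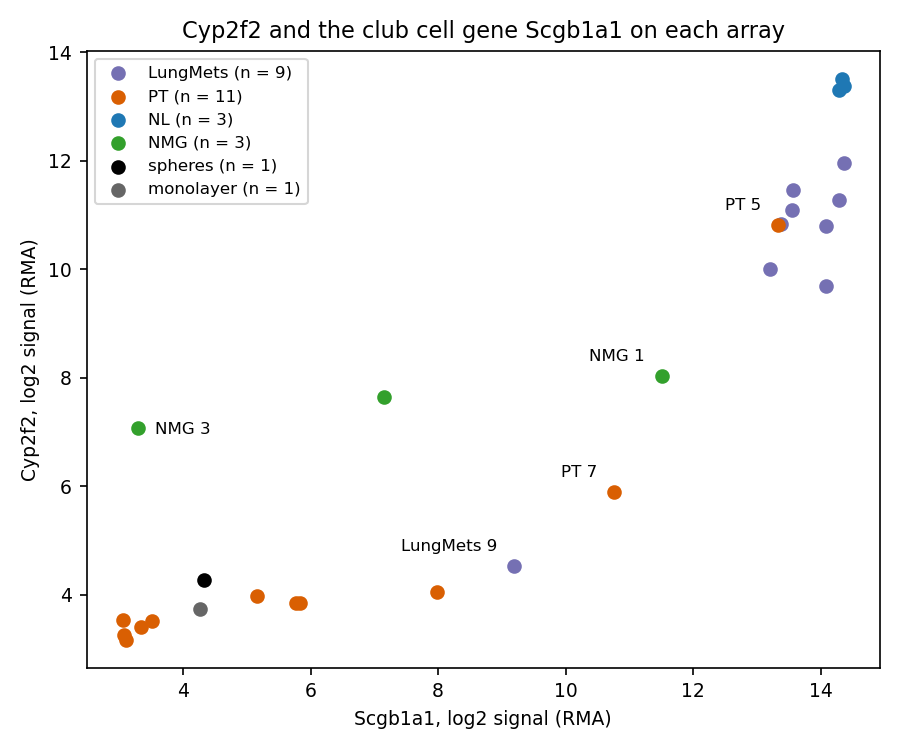
Log2 signal (RMA) of Cyp2f2 (vertical) against that of the club cell gene Scgb1a1 (horizontal), 1 point per array, coloured by group. The NL and LungMets arrays lie at the upper right except LungMets 9, PT 5 lies among the LungMets arrays, and the NMG arrays keep Cyp2f2 at 7.07 to 8.03 while Scgb1a1 runs between 3.29 and 11.51.

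In the primary tumors Cyp2e1, Cyp4b1, Cyp2f2, Cyp4v3 and Cyp27a1 were lower than in the normal mammary gland, and Cyp7b1, Cyp26a1, Cyp26b1 and Cyp39a1 were higher. In PT against NMG, 26 of 70 members passed, 16 higher and 10 lower, where 47.7% of all genes passed (26.7% higher, 21% lower). The median difference was 0.14, and 0.09 for all genes. With each array centred on its median 48 members passed, 38 higher and 10 lower. The share of all genes under that centring is not given here, so this count is not read as a result about the members. With a fold over 2, 4 were higher and 8 lower, where 6.71% of all genes were higher and 10.5% lower. Among the 49 low members 13 passed, all higher, with a median difference of 0.18 over the 49; among all 5226 genes that low, 18.4% were higher, with a median of 0.12.

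Cyp2e1 fell most. It read 4.37, 5.67 and 8.46 (lowest, median, highest) in PT, against 12.26, 12.40 and 12.62 in NMG. PT 6 (8.46) and PT 1 (8.43) were the highest, and all PT arrays were below all NMG arrays. The difference was −6.40 ± 0.75 (84.7-fold lower; adjusted p = 1.68e-07). Adipocyte markers moved alongside: their mean was 4.85 to 7.14 in PT and 11.13 to 11.87 in NMG, and all 5 were lower, where 21% of all genes were. The part of fat in the signal of Cyp2e1 was not tested.

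Cyp4b1 read 9.15, 8.94 and 9.60 in NMG and was lower in PT by 3.24 ± 0.76 (adjusted p = 0.00104, and −3.63 without PT 5 and LungMets 9), with PT 5 (9.92) above NMG and all other PT arrays below. Cyp2f2 was lower by 3.10 ± 1.24 (adjusted p = 0.0424), and without PT 5 and LungMets 9 by 3.73 (−3.73, adjusted p = 2.35e-07). Leaving out any other single PT or NMG array, PT 7 excepted, took the call away (adjusted p = 0.0526 to 0.133). Cyp4v3 read 7.99, 7.77 and 8.82 in NMG, above all PT arrays (6.64 or below), and was lower by 2.38 ± 0.31.

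Cyp27a1, the mitochondrial enzyme that hydroxylates the side chain of cholesterol, read 5.11, 5.77 and 6.21 in PT and 7.50, 7.46 and 7.89 in NMG. The groups did not overlap, and the difference was −1.91 ± 0.17 (adjusted p = 2.5e-09). It was also lower in LungMets (5.88, 6.13 and 6.58) than in NL (7.98, 7.48 and 7.71), by 1.56 ± 0.18. Cyp27a1 was thus lower in the tumor than in the normal tissue at both sites.

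Cyp4f18 read 4.01, 4.72 and 5.28 in PT, against 6.45, 6.16 and 6.06 in NMG, and was lower by 1.53 ± 0.19. Its second probe set was flat, at 4.03 in PT and 3.83 in NMG. Cyp2j6 read 3.72, 3.98 and 4.31 in PT, against 5.21, 5.53 and 5.30 in NMG, and was lower by 1.39 ± 0.11. All NMG arrays were above all PT arrays in both genes, and Cyp2j9 was lower by 1.13 ± 0.17.

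**Figure D4:**
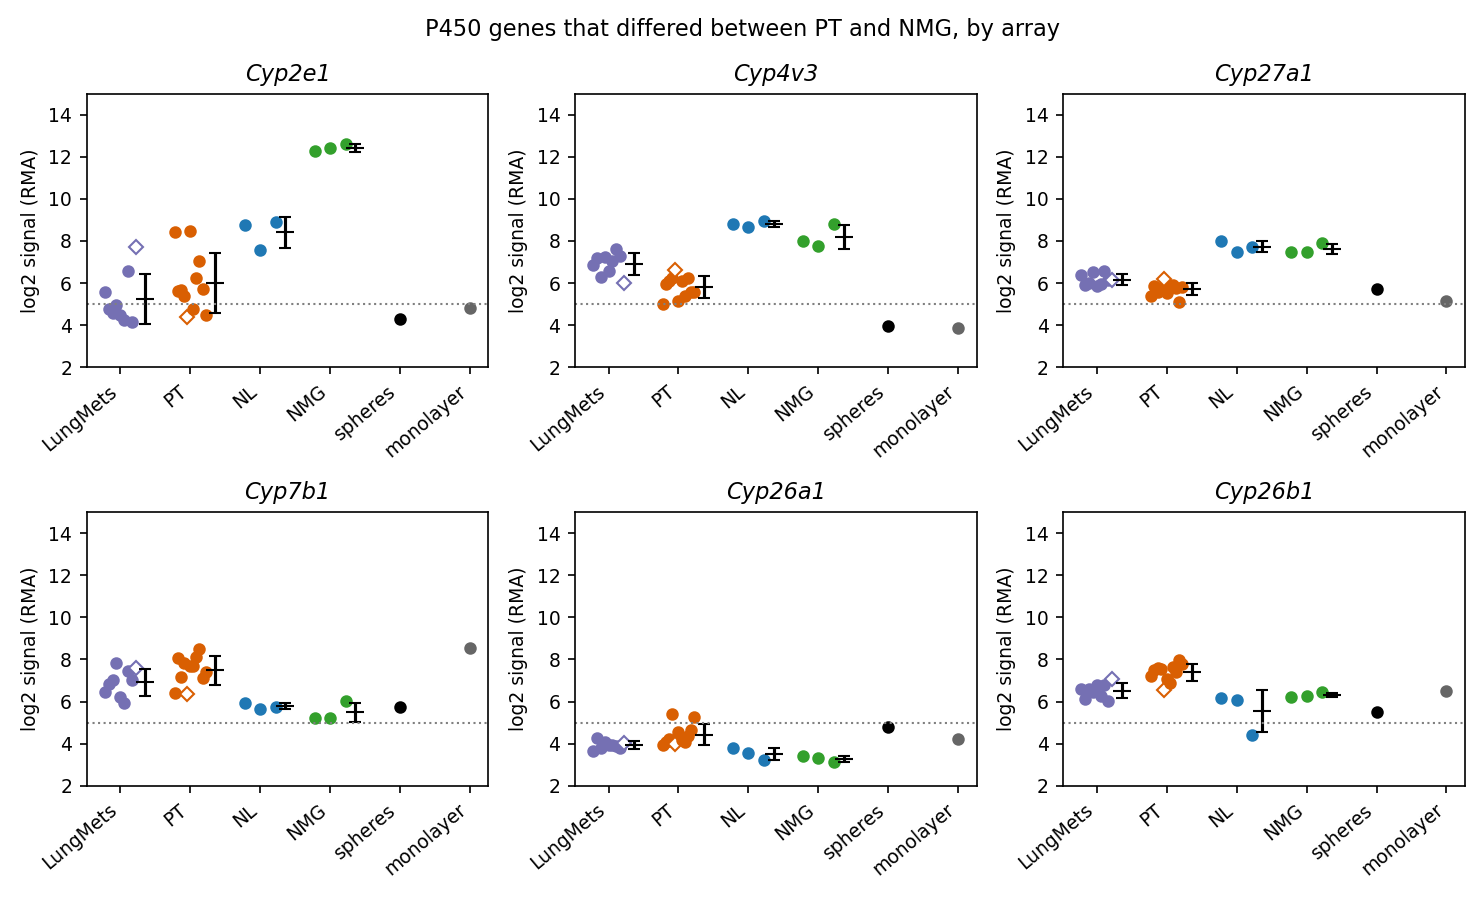
Log2 signal (RMA) of 6 P450 genes that passed the test between PT and NMG, by group, 1 point per array, with mean and SD beside each group of several arrays; the open diamonds are PT 5 and LungMets 9, and the dotted line is the lowest array median. Cyp2e1, Cyp4v3 and Cyp27a1 are lower in PT than in NMG, and Cyp7b1, Cyp26a1 and Cyp26b1 are higher.

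Of the sterol and bile acid enzymes, 3 of 6 were higher and 1 lower in PT than in NMG, where 26.7% of all genes were higher and 21% lower. Cyp7b1, an oxysterol hydroxylase, read 6.34, 7.67 and 8.49 in PT, against 5.24, 5.23 and 6.02 in NMG, with no overlap and a difference of 2.00 ± 0.38 (3.99-fold; adjusted p = 0.000131). LungMets (5.93, 7.01 and 7.83) was higher than NL (5.95, 5.67 and 5.73) by 1.14 ± 0.39 (adjusted p = 0.0195, and 0.0708 or 0.0651 without NL 2 or NL 3), with LungMets 6 inside the NL range. Another probe set of Cyp7b1 gave smaller contrasts, with group means of 6.94 in PT, 5.55 in NMG, 6.88 in LungMets and 6.20 in NL. The remaining probe set of Cyp7b1 was flat, at 2.82 in PT and LungMets and 2.83 in NMG and NL. Cyp39a1, another oxysterol hydroxylase, averaged 6.71 ± 0.50 in PT and 5.69 ± 0.023 in NMG, a difference of 1.01 ± 0.32 (adjusted p = 0.0106). Cyp7a1, the rate-limiting enzyme of bile acid synthesis in liver, was at 3.89 in PT and 3.42 in NMG (0.47 ± 0.17; adjusted p = 0.0242), both below the array medians, and lost its call without any of the NMG arrays (adjusted p = 0.0539 to 0.0856). Cyp8b1 (3.63 in PT, 3.45 in NMG) and Cyp46a1 (4.22 and 4.26) did not pass.

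The enzymes that clear retinoic acid were both higher in PT than in NMG and lower in LungMets than in PT. Cyp26b1 read 6.04, 6.59 and 7.09 in LungMets, 6.56, 7.49 and 7.99 in PT, 6.16, 6.09 and 4.42 in NL and 6.24, 6.25 and 6.44 in NMG. All PT arrays were above all NMG arrays. LungMets and PT overlapped, with PT 5 (6.56) the lowest PT array and LungMets 9 (7.09) the highest LungMets array. The other LungMets arrays lay at 6.78 or below and the other PT arrays at 6.88 or above. The difference was 1.08 ± 0.28 in PT against NMG (adjusted p = 0.00291) and −0.86 ± 0.20 in LungMets against PT (adjusted p = 0.00392). Without PT 5 and LungMets 9 these differences were 1.16 (adjusted p = 0.000766) and −1.01 (adjusted p = 0.000375). In LungMets against NL the difference was 0.97 ± 0.29 (adjusted p = 0.00812), and 0.40 (adjusted p = 0.251) without NL 3, the array at 4.42.

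Cyp26a1 was low throughout, with means of 3.93 in LungMets, 4.43 in PT, 3.52 in NL and 3.29 in NMG. It was higher in PT than in NMG by 1.14 ± 0.23 (adjusted p = 0.000227) and lower in LungMets than in PT by 0.49 ± 0.16 (adjusted p = 0.0355). Its LungMets and PT arrays overlapped, and this second call was lost when any of 7 arrays was left out (adjusted p = 0.0522 to 0.0674). The limma fit with replicate numbers as blocks lost the call too (−0.37, adjusted p = 0.0527). Of 13 genes of retinoid handling, 3 were higher and 3 lower in PT than in NMG, near the shares of all genes (26.7% and 21%), with a median difference of −0.17. Aldh1a3, which makes retinoic acid, was higher by 2.14 ± 0.64 and Rdh10, which makes retinal, by 1.24 ± 0.25. Rbp4, the carrier of retinol in blood and a product of fat, was lower by 6.09 ± 0.37, and Lrat, which stores retinol as ester, by 1.80 ± 0.65.

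The steroid hormone and vitamin D enzymes were at low signal. Cyp21a1, the steroid hydroxylase of the adrenal cortex, was the only steroid member above the array medians, at 6.08 in LungMets, 6.07 in PT and 6.08 in NMG. Its group means were at most 0.08 apart, and it passed no test. The other probe set of Cyp21a1 averaged only 3.25 to 3.54 in the 4 tissue groups. Cyp11a1, Cyp11b1, Cyp11b2 and Cyp17a1 averaged 3.42 to 4.42 in all tissue groups. Of these, Cyp17a1 was 0.29 ± 0.11 higher in PT than in NMG (adjusted p = 0.0335) and Cyp11b2 0.27 ± 0.11 higher in LungMets than in NL (adjusted p = 0.05), and both calls were lost without PT 5 and LungMets 9 (adjusted p = 0.0501 and 0.0792), that of Cyp17a1 also without NMG 1 or NMG 2 and that of Cyp11b2 without any of 9 single arrays (adjusted p up to 0.467). Cyp2r1, Cyp24a1 and Cyp27b1, which activate or break down vitamin D, averaged 2.77 to 4.49 and passed no test in these comparisons. Markers of steroid-making cells averaged 4.55 to 5.12 on the tissue arrays.

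The contrast of tumor with normal tissue differed between the sites for 10 of 70 members, where 19.8% of all genes differed (10.1% higher, 9.68% lower). The difference LungMets minus NL was set against PT minus NMG in 1 test, and 2 members were higher and 8 lower in it. With a fold over 2, 2 were higher and 4 lower, where 6.15% of all genes were higher and 5.16% lower. Cyp1a1 differed by −3.90 ± 0.29 (adjusted p = 4.39e-10), since it was lower in LungMets than in NL while PT and NMG were both low. Cyp2s1 (−2.61 ± 0.58) and Cyp2b10 (−2.56 ± 0.77) followed the same order, at −2.19 and −2.08 without PT 5 and LungMets 9. Cyp2e1 (3.22 ± 1.07) and Cyp4f18 (1.72 ± 0.28) were the 2 members higher in this test. Cyp2e1 was lower in the tumor at both sites, by 6.40 in PT against NMG and by 3.18 in LungMets against NL. The calls of Cyp2b10, Cyp2e1, Cyp2d22 and Cyp4f39 were lost when single arrays of NL or NMG were left out (adjusted p = 0.05 to 0.145), and 6 members passed without NMG 2. With the mean of all probe sets Cyp2b10 differed by −2.83 (adjusted p = 0.107). Cyp27a1, Cyp4v3, Cyp2j6, Cyp2j9, Cyp4b1, Cyp2f2 and Cyp2d22 were, like Cyp2e1, lower at both sites.

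**Figure D5:**
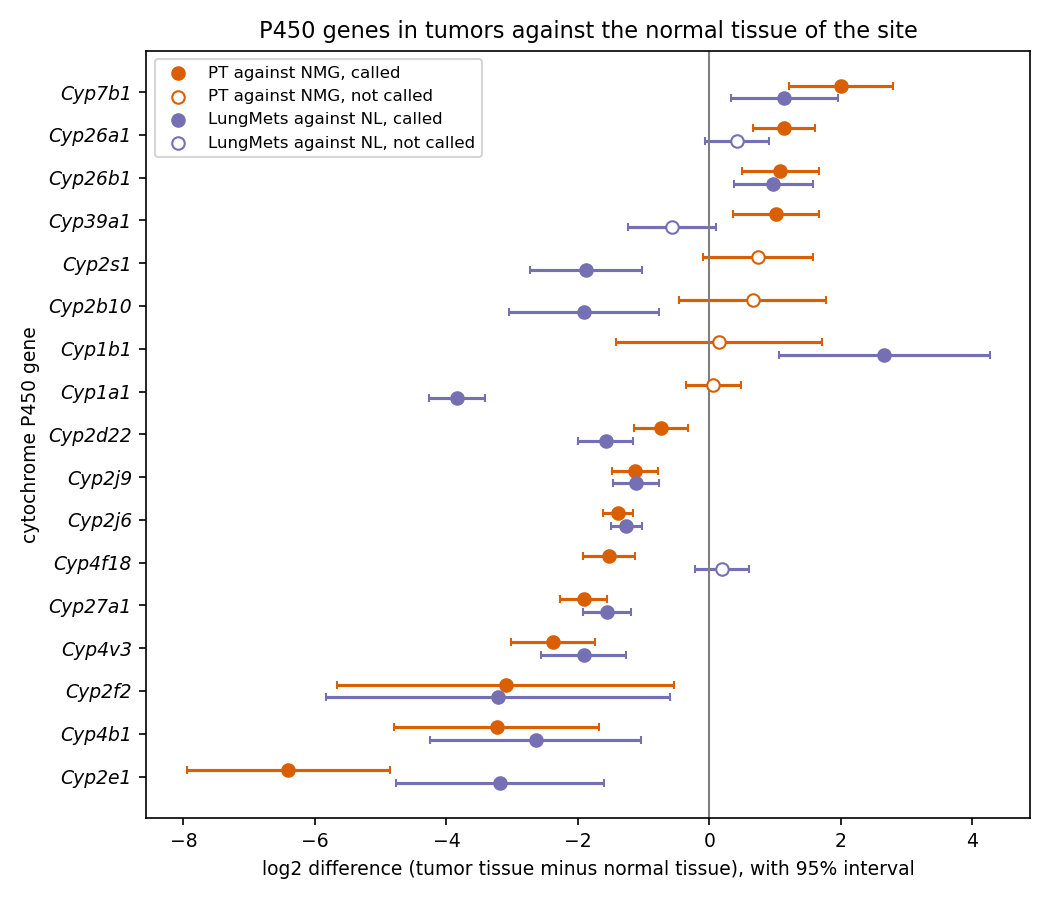
Log2 difference (horizontal) of PT against NMG and of LungMets against NL, with 95% interval, for each P450 gene called with an absolute difference of at least 1 in either comparison; filled points passed the test and open points did not. Cyp2e1, Cyp4b1, Cyp2f2, Cyp4v3 and Cyp27a1 lie left of 0 in both comparisons, and Cyp7b1 and Cyp26b1 right of 0. On the probe sets used, Cyp1a1 and Cyp1b1 depart from 0 in LungMets against NL only.

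Metastases had less Cyp2e1 than the mammary gland and more Cyp2b10, Cyp2s1 and Cyp7b1. In LungMets against NMG, 21 of 70 members passed, 15 higher and 6 lower, where 41% of all genes passed (23.1% higher, 17.9% lower). The median difference was 0.20, and 0.10 for all genes. After a further quantile normalization 15 members passed, 9 higher and 6 lower, and the share of all genes in that setting is not given here. By more than 2-fold, 3 were higher and 5 lower, where 5.36% of all genes were higher and 7.95% lower. Among the 49 low members 12 passed, all higher, with differences of 0.64 or less. Of all 5226 genes that low, 17.4% were higher. Cyp2e1 was lower by 7.19 ± 0.77 (146-fold; adjusted p = 6.07e-08), whereas Cyp2b10 was higher by 2.97 ± 0.55, Cyp2s1 by 2.06 ± 0.42 and Cyp7b1 by 1.43 ± 0.39. Without PT 5 and LungMets 9 the differences of Cyp2b10 and Cyp2s1 were 3.24 and 2.30. Cyp2f2 (10.18 in LungMets, 7.58 in NMG) and Cyp4b1 (9.61 and 9.23) did not pass. In Cyp2f2, LungMets 9 read 4.54, below NMG (7.07 to 8.03), while all other LungMets arrays lay above NMG, at 9.69 or more. In Cyp4b1, LungMets 9 read 6.60, and the other LungMets arrays (8.48 to 11.21) overlapped with NMG (8.94 to 9.60).

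Of 7 redox partners, which pass electrons to P450 enzymes, 4 were lower in PT than in NMG, 2 higher in LungMets than in PT and 4 lower in LungMets than in NL, where 21%, 9.03% and 22.4% of all genes were. The median differences of the list were −0.39, 0.10 and −0.83. Cyb5a, the cytochrome that passes electrons to P450 enzymes of the endoplasmic reticulum, was lower in PT than in NMG by 1.18 ± 0.25, and Fdx1, the mitochondrial electron carrier, by 1.12 ± 0.20. In LungMets against PT Cyb5a was higher by 0.59 ± 0.17 and Fdx1 by 0.49 ± 0.14.

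Of 9 genes of heme synthesis and breakdown, 6 were lower and 1 higher in PT than in NMG, where 21% of all genes were lower and 26.7% higher, and 3 were higher in LungMets than in PT, where 9.03% were. The median differences were −0.58 and 0.11. Alas1, the rate-limiting enzyme of heme synthesis, was higher in LungMets than in PT by 1.67 ± 0.31 (adjusted p = 0.000701) and lower than in NL by 1.46 ± 0.46. Alad, the enzyme after it, was lower in PT than in NMG by 2.84 ± 0.28 (adjusted p = 1.03e-08) and higher in LungMets than in PT by 0.90 ± 0.19.

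Among 21 regulators of P450 genes, 10 were lower and 3 higher in PT than in NMG (21% and 26.7% of all genes; median difference −0.42), and 4 were higher in LungMets than in PT (9.03%; median 0.10). Ahr, the aryl hydrocarbon receptor, averaged 8.89 in LungMets, 8.10 in PT, 10.24 in NL and 8.68 in NMG, higher in LungMets than in PT by 0.79 ± 0.20 and lower than in NL by 1.36 ± 0.30. Among the 4 tissue groups NL had the highest mean of Ahr and of Cyp1a1 and the lowest of Cyp1b1. Nr1i3, the constitutive androstane receptor named above for Cyp2b10, stayed at 4.13 to 4.26 in all 4 groups and passed no test. Pparg, the master regulator of fat cells, was lower in PT than in NMG by 4.38 ± 0.17 and Cebpa by 3.33 ± 0.19.

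Other enzymes of oxidation and conjugation were also followed: of 26, 16 were higher and 2 lower in LungMets than in PT (9.03% and 6.13% of all genes), and 16 were lower and 3 higher in PT than in NMG (21% and 26.7%). The median differences were 0.73 and −1.16. Ces1d, a carboxylesterase, was higher in LungMets than in PT by 4.30 ± 0.54, and the flavin monooxygenase genes Fmo2 and Fmo1 by 2.74 ± 0.48 and 2.67 ± 0.43. In PT against NMG Ces1d was lower by 5.57 ± 0.78 and Gsta3, a glutathione transferase, by 4.50 ± 0.68.

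Of 12 eicosanoid enzymes, 3 were higher and 4 lower in PT than in NMG, where 26.7% of all genes were higher and 21% lower, with a median difference of −0.36. Ptgs2, the inducible cyclooxygenase, was higher by 4.66 ± 0.84 and Ephx2, which hydrolyses the epoxides that P450 epoxygenases make, was lower by 6.10 ± 0.32. Of 12 genes of cholesterol synthesis and efflux, 5 were higher and 5 lower (median 0.07), with Cyp51, the P450 of cholesterol synthesis, higher by 1.10 ± 0.21 and Abcg1, a sterol exporter, lower by 1.72 ± 0.28. Ptgis, prostacyclin synthase, was higher in LungMets than in PT by 2.18 ± 0.45 (adjusted p = 0.00177) and lower than in NL by 1.98 ± 0.67. Tbxas1, thromboxane synthase, passed no test.

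The cell line arrays gave values without a replicate. Of the members, 17 were above the lowest array median in spheres and 16 in monolayer. Cyp1a1 read 5.47 in spheres and 5.12 in monolayer, higher than on any LungMets or PT array. Cyp7b1 read 5.73 in spheres and 8.54 in monolayer, and Cyp1b1 7.15 and 7.13. The lung genes Cyp2f2 (4.27 in spheres, 3.73 in monolayer), Cyp4b1 (5.43 and 4.39) and Cyp2s1 (4.64 and 4.47) were at PT level or below it, Cyp2b10 read 6.15 and 6.41, and Cyp2e1 read 4.30 and 4.83.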

How the data were processed

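The authors deposited log2 values for 45101 probe sets, made with RMA in Partek 6.6 (background correction, quantile normalization and summary of probe sets, per the labels and the study's methods), and these log2 values were used without a further normalization. The platform annotation gave 1 gene symbol for 34958 probe sets, several for 932 and none for 9211; 34945 were used, for 18193 genes, and all 70 members matched a RefSeq gene. Scanner files were not used here, so detection and array quality were not assessed, and the number of arrays limits the precision.

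A mean per group was fitted to the 26 tissue arrays with lmFit and eBayes of limma 3.58.1 (R 4.3.3). Tests were two-sided, and the Benjamini-Hochberg adjustment ran over 18193 genes, with an adjusted p under 0.05 taken as a call. Differences are given ± SE. Simulated data with known shifts were used to test each comparison. Figures were drawn with matplotlib 3.10.9.

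The members and the gene lists were chosen with earlier results of these data known. Named with values per array were, for each comparison, up to 8 called members of largest absolute difference, and with means those called with an absolute log2 difference of at least 1 and the steroid, retinoic acid, vitamin D and sterol enzymes, and per list up to 4 called genes. Nr1i3, Tbxas1, Scgb1a1, Sftpc and the cell line values were chosen after their values were seen. Alternatives covered the probe set rule, filters, centring, normalization, array weights, blocks and left-out arrays. The alternatives for the count of members above the lowest array median, and the fit within the second date batch without PT 5 and LungMets 9, were added after seeing the data.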

Additional observations from a re-analysis of the deposited data

Results flagged for a closer look

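The 9 LungMets arrays were searched in 31 named members for an array far from the others, and 4 members had one. Chance gives one in about 1 in 20 members. All members were read on the same arrays, so 4 of 31 cannot be set against that rate. LungMets 9 lay far below the others in Cyp2f2 (4.54 against 9.69 to 11.96) and in Cyp2s1 (4.00 against 5.71 to 6.65), and above them in Cyp2r1 (3.27 against 2.43 to 2.84). LungMets 7 was above the others in Cyp11a1 (4.37 against 3.67 to 4.00). Cyp2r1 and Cyp11a1 were below the lowest array median (5.00) on every LungMets array.

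The difference of LungMets from NL was not that of PT from NMG for 9 named members, by the limma test of the difference itself. It was lower by 3.90 for Cyp1a1 (−3.90, adjusted p = 4.39e-10), by 2.61 for Cyp2s1 (−2.61, adjusted p = 0.00184), by 2.56 for Cyp2b10 (−2.56, adjusted p = 0.0196) and by 1.59 for Cyp39a1 (−1.59, adjusted p = 0.0141). Smaller ones were Cyp4f39 (−0.85, adjusted p = 0.0192), Cyp2d22 (−0.84, adjusted p = 0.0347) and Cyp4f15 (−0.76, adjusted p = 0.00102). It was higher for Cyp2e1 (3.22, adjusted p = 0.0347) and Cyp4f18 (1.72, adjusted p = 6.23e-05).

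The cell line arrays, 1 per condition and in no comparison, had members well above the normal tissues. Cyp3a13 read 6.06 in spheres, against 2.54 to 3.32 on NL and NMG arrays, but only 2.84 in monolayer. In monolayer Cyp7b1 read 8.54, against 5.23 to 6.02, and Cyp2b13 read 5.09, against 3.63 to 4.03. In spheres Cyp7b1 read 5.73 and Cyp2b13 4.64.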

How the results depend on the processing

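Of 75 results for named genes, 43 kept direction and call under every alternative run, 32 lost the call under at least 1 (the fold condition included), and 0 reversed; 17 lost it when a single array was left out. With a fold over 2 the counts were 12 in PT against NMG, 5 in LungMets against PT, 13 in LungMets against NL, 8 in LungMets against NMG and 6 in the difference between sites. With only genes above the median of gene means (fewer members tested) they were 8, 6, 9, 5, 6 in NL against NMG and 3 in the difference between sites. Centring each array on its median gave 48 in PT against NMG, and array weights gave 38 in LungMets against NMG and 20 in NL against NMG. The cause was not tested. Shares of all genes are given for the main fit and its fold condition only. Counts under the other alternatives are therefore not read as results about the members. LungMets against PT gave 6 members within date batch 1, 0 within date batch 2 (12 at an unadjusted p under 0.05) and 7 there without PT 5 and LungMets 9. With the highest mean of the Y-linked genes as the limit of low signal, 55 members exceeded it in some tissue group, and 21 the lowest array median.

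Leaving out each array in turn gave 19 to 26 in PT against NMG, 9 to 14 in LungMets against PT, 17 to 30 in LungMets against NL (17 without NL 3), 17 to 23 in LungMets against NMG, 11 to 13 in NL against NMG, 6 to 11 in the difference between sites (6 without NMG 2), and 0 to 0 between date batches. A left-out NL or NMG array leaves 2 in its group. Without PT 5 and LungMets 9 the counts were 25, 15, 28, 22 and 14 in the same order of comparisons, and 10 between sites. Between date batches an ordinary linear model also called 0 members, with 1 at an unadjusted p under 0.05.

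Replicate numbers were shared by the groups. Of the LungMets and PT pairs, 7 of 9 had a correlation over 0.1 (−0.233 to 0.481), and 0 of 3 pairs did in each other comparison. Whether the numbers pair LungMets with PT arrays is not known from the sources used here, and the main fit did not pair them. With the replicate block the counts were 25, 11, 24, 21 and 13, and the calls of Cyp26a1 in LungMets against PT (adjusted p = 0.0527) and Cyp11b2 in LungMets against NL (adjusted p = 0.12) were lost.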
